A study of Mus musculus with 50 samples.

Results

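Basement membranes are thin sheets of matrix under epithelia and around vessels. Collagen IV is the network-forming collagen of these sheets, and in most tissues its trimer is built from the chains encoded by Col4a1 and Col4a2. Collagens XV and XVIII, encoded by Col15a1 and Col18a1, are proteoglycan-like collagens of basement membrane zones, and the C-terminal fragment of collagen XVIII is endostatin. In the healthy liver the sinusoids lack a continuous basement membrane, whereas bile ducts and larger vessels have one, and stellate cells, the pericytes of the sinusoid, make matrix when the liver is injured. The members described here were chosen by name, as 4 collagens of basement membranes among 1000 gene targets of a CosMx panel. CosMx is spatial molecular imaging, in which each decoded fluorescent spot on a tissue section is 1 transcript. Col4a5, another collagen IV chain gene, was also on the panel and is counted below with other basement membrane components. The 4 members were followed across hepatocytes, biliary cells, endothelial cells and stellate cells, and between genotypes.

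Control livers came from wild-type C57BL/6 mice and HIRA KO livers from HIRA fl/fl C57BL/6 mice. Mice of both groups received AAV8-TBG-Cre, a virus whose TBG promoter drives Cre recombinase in hepatocytes and not in endothelial or stellate cells, so the deletion of HIRA, a chaperone of histone H3.3, was directed to the hepatocytes of the HIRA KO mice. Injection was at 6 months of age and the median lobe was collected 12 months later, at 18 months. The sections were imaged in 50 fields of view, 25 per group, which form 6 tissue areas on 1 slide, 3 per group, and the area was taken as the replicate. The labels name no mouse, so p-values measure the spread between areas. Control areas occupied the left side of the slide and HIRA KO areas the right, so slide side and genotype cannot be told apart, and Hira was not on the panel.

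After filtering, 49682 cells remained, and the areas held 719085 to 1542262 gene counts each. HIRA KO areas were more deeply read, with 10.8 ± 0.473 gene counts per 1000 square pixels of cell (SD, n = 3) against 7.09 ± 1.33 in control areas (two-sided exact permutation, p = 0.1, below which 3 against 3 cannot go). Negative probes, which match no transcript, moved alike, at 4.58 ± 0.295 against 3.00 ± 0.755 counts per probe and megapixel. Levels are therefore given as CPM, the count divided by all gene counts of the same cells and scaled to one common total, with the mean level per negative probe beside them. All 4 members lay above the highest of the 10 negative probes, which had 3946 counts in all segmented cells. Col18a1 had 9854 counts in these cells, Col4a1 7945, Col15a1 7151 and Col4a2 4514, and these were 3.31, 2.67, 2.40 and 1.52 times the mean negative probe. Col4a2 thus stood closest to background.

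Cells were clustered with the 4 members left out, and clusters were named from marker genes. Hepatocyte-like cells (15031), cholangiocyte-like cells (2905), endothelial-like cells (6065) and stellate-like cells (5221) are described here, and 15038 cells stayed unnamed. In each of the 4 classes every panel marker of that class, 10, 10, 12 and 12 genes, was higher than in the other cells. Hepatocyte markers were also counted in the other classes. Their summed level over 10 genes was 27567 to 49527 CPM in stellate-like cells, 30036 to 59198 CPM in endothelial-like cells and 32471 to 54277 CPM in cholangiocyte-like cells, against 76139.5 to 138980 CPM in hepatocyte-like cells, and the source of these counts was not tested. Different clusters held most hepatocyte-like cells in the 2 groups. A cluster led by Neat1 and Vegfa, of 5175 cells with 4 hepatocyte markers raised and 1 of them (Azgp1) among its 10 leading genes, made up 58.6 to 65.9% of them in control areas and 14.2 to 23.5% in HIRA KO areas, where a pair of clusters led by Ttr and Gc held the majority.

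The genomic layout of the members is shown first because it pairs 2 of them. Col4a1 (ENSMUSG00000031502.11) spans chr8:11198423-11312826 on the minus strand and Col4a2 (ENSMUSG00000031503.13) spans chr8:11312805-11449287 on the plus strand of GRCm38 (GENCODE vM21). They are thus transcribed in opposite directions from start sites 21 bases apart, and their first bases overlap, from 11312805 to 11312826. In the RefSeq promoter table on GRCm38.p6, which gives 250 bases before and 50 bases after each start, the windows chr8:11312777-11313076 (Col4a1) and chr8:11312555-11312854 (Col4a2) share 78 bases. They are printed 5′ to 3′ on the strand of each gene, with the shared bases in capitals.

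Col4a1: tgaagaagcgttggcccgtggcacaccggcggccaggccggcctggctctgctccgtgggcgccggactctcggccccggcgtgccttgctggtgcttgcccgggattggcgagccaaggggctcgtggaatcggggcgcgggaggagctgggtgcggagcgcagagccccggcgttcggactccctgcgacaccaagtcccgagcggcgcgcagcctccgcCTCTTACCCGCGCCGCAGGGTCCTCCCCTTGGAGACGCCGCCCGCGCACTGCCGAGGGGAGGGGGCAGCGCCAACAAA

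Col4a2: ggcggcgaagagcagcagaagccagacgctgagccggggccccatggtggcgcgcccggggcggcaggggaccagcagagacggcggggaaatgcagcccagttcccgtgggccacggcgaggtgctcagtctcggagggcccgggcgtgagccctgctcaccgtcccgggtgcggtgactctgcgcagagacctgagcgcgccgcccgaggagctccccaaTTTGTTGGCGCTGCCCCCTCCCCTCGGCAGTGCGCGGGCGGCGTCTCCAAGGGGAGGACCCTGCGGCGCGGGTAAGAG

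Short motifs known from many promoters were searched on both strands. The CCAAT box was searched as the letters CCAAT and occurred in 37.4% of the 32851 windows of the table. The GC box was searched as the letters GGGCGG, which occurred in 35.7% of windows. The TATA box was searched as the letters TATAAA, found in 13.6% of windows. No match of one motif overlapped a match of another in these windows. The Col4a1 window held 1 CCAAT box and 1 GC box, the Col4a2 window held 1 CCAAT box and 3 GC boxes, and neither held a TATA box. Both windows were GC-rich, with 74% and 73.7% G or C against a median of 52.7% over all windows.

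Col18a1 (ENSMUSG00000001435.15, chr10:77052178-77166548, minus strand) has 2 windows in the table, and its start sites lie 52825 bases apart. The gene is known for alternative promoters that give shorter and longer forms of the chain. They are shown because Col18a1 was highest in hepatocyte-like cells, where collagen IV was low, and the capitals mark matches of the same motifs on either strand. The first window is chr10:77166481-77166780 and the second chr10:77113656-77113955.

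Col18a1, first start: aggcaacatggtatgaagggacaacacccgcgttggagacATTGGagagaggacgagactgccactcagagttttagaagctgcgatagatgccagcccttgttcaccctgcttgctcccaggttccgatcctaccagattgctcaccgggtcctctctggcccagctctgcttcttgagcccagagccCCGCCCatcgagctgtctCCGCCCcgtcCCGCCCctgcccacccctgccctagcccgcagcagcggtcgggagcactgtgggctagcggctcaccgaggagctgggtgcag

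Col18a1, second start: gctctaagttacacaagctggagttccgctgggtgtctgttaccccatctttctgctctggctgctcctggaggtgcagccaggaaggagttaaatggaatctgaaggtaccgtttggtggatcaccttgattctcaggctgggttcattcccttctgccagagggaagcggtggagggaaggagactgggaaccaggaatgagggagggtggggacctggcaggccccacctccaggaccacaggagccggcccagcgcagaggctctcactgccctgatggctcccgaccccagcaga

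The first window held 3 GC boxes and 1 CCAAT box, and the second held none of the 3 motifs. The panel gives 1 count for the gene, so transcripts from the 2 starts cannot be told apart in these data. Col15a1 (ENSMUSG00000028339.17, chr4:47208161-47313167, plus strand) has 1 window, chr4:47207762-47208061, with none of the 3 motifs and 52.3% G or C.

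To find which cells carried each collagen, the levels were compared between classes within each area. Col4a1, which encodes the alpha1 chain of collagen IV, was highest in stellate-like cells, at 2279 ± 485 CPM (SD, n = 6), followed by endothelial-like cells at 1904 ± 302 CPM. Cholangiocyte-like cells stood at 862 ± 286 CPM and hepatocyte-like cells at 842 ± 89.4 CPM. The mean level per negative probe in the same cells was 368, 390, 316 and 473 CPM. In control areas 1 to 3, the level in stellate-like cells was 1837, 1859 and 1890 CPM, and in HIRA KO areas 1 to 3 it was 2823, 2866 and 2399 CPM. In endothelial-like cells it was 1607, 1500 and 1967 CPM in control areas and 2315, 2071 and 1964 CPM in HIRA KO areas. Every area had more Col4a1 in both of these classes than in its hepatocyte-like cells.

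The step from endothelial-like to hepatocyte-like cells was 1.17 ± 0.144 on the log2(CPM + 1) scale (SD, n = 6) and had the same direction in 6 of 6 areas (exact paired permutation of signs, two-sided, p = 0.0312, the smallest that 6 areas allow). The step from stellate-like to endothelial-like cells was 0.25 ± 0.174, higher in 5 of 6 areas (exact p = 0.0625). In all, 12 steps between neighbouring classes were tested over the 4 members, and with so few areas no step passed the 0.05 threshold after Benjamini-Hochberg adjustment (lowest adjusted p = 0.0938). In an edgeR fit across all targets over the 24 class sums with the area as a block, added after the data were seen, stellate-like exceeded endothelial-like cells by 0.29 (SE 0.0846, adjusted p = 0.00572), and endothelial-like exceeded hepatocyte-like cells by 1.19 (SE 0.0818, adjusted p = 3.95e-20). Between these classes, 29.2% and 49.8% of 998 targets were called, so a call by itself does not set Col4a1 apart. With nuclear transcripts alone, the step from stellate-like to endothelial-like cells turned to -0.013.

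Kupffer-like and T/NK-like cells, immune cells taken as a comparison, had 977 ± 98.9 and 945 ± 304 CPM of Col4a1 (SD, n = 6). The level in hepatocyte-like cells was no higher than this, and hepatocyte-like and cholangiocyte-like cells differed by 0.03 ± 0.421 on the log2 scale (SD, n = 6, exact p = 0.906), a difference whose sign changed with the processing. Among endothelial-like clusters, the one led by Kdr, Eng and Bmp2 had 1977 CPM, and the smaller one led by Fabp4 and Vwf had 1433 CPM. Among stellate-like clusters, the one led by Dcn, Bgn and Col3a1 had 2358 CPM, and the one led by Gsn, Mgp and Dpt had 1766 CPM. The 1010 myofibroblast-like cells, led by the contractile genes Acta2 and Tagln, had 1864 ± 525 CPM.

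Col4a2, its partner chain, followed the same order at lower counts. Stellate-like cells had 1184 ± 208 CPM, endothelial-like cells 986 ± 169 CPM, cholangiocyte-like cells 671 ± 133 CPM and hepatocyte-like cells 500 ± 28.4 CPM (SD, n = 6). In hepatocyte-like cells the 6 areas ranged from 466 to 534 CPM around a negative probe level of 473 CPM, so Col4a2 was not detectable above background there. Stellate-like exceeded endothelial-like cells in 6 of 6 areas, by 0.27 ± 0.173 (exact p = 0.0312, adjusted p = 0.0938), and by 0.31 (SE 0.0976, adjusted p = 0.00904) in the edgeR fit over class sums. The step from endothelial-like to cholangiocyte-like cells was 0.56 ± 0.481, higher in 5 of 6 areas (exact p = 0.0625), and 36.4% of targets were called between those classes in the edgeR fit (adjusted p of Col4a2 = 0.00296).

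Col18a1 was ordered differently. It was highest in hepatocyte-like cells, at 1975 ± 253 CPM (SD, n = 6), then in cholangiocyte-like cells at 1207 ± 222 CPM, stellate-like cells at 950 ± 133 CPM and endothelial-like cells at 802 ± 98.2 CPM. In control areas 1 to 3 the level in hepatocyte-like cells was 2180, 1767 and 2384 CPM, and in HIRA KO areas 1 to 3 it was 1908, 1859 and 1751 CPM. In cholangiocyte-like cells it was 1189, 986 and 1626 CPM in control areas and 1215, 1064 and 1163 CPM in HIRA KO areas. Within each area the hepatocyte-like level was the higher one, by 0.72 ± 0.138 on the log2 scale (6 of 6 areas, exact p = 0.0312, adjusted p = 0.0938). The edgeR fit over class sums gave 0.65 (SE 0.0949, adjusted p = 3.88e-08), where 38.1% of targets were called. T/NK-like and Kupffer-like cells had 747 ± 168 and 832 ± 151 CPM, near the level of endothelial-like cells. All 4 hepatocyte-like clusters carried Col18a1 at 1704 to 2040 CPM, including the one led by Glul, a gene of pericentral hepatocytes, with 1785 CPM.

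Col15a1 varied least of the 4 between these classes. Its mean was 1090 ± 145 CPM in hepatocyte-like, 977 ± 105 CPM in stellate-like, 883 ± 210 CPM in cholangiocyte-like and 877 ± 83.0 CPM in endothelial-like cells (SD, n = 6). Kupffer-like cells had 1012 ± 229 CPM and T/NK-like cells 1044 ± 363 CPM. The first and second classes differed by 0.15 ± 0.297 (4 of 6 areas, exact p = 0.219), and the order turned when the negative probe level was subtracted or when classes were set by marker score. In the edgeR fit over class sums, 1 of the 6 pairs of classes passed the threshold for Col15a1, hepatocyte-like over endothelial-like cells, by 0.29 (SE 0.0881, adjusted p = 0.00488). No class stood out for this collagen at this depth. The remaining pairs of classes had background shares of 44.8% (stellate-like and hepatocyte-like) and 30.4% (stellate-like and cholangiocyte-like) of targets called.

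**Figure D1:**
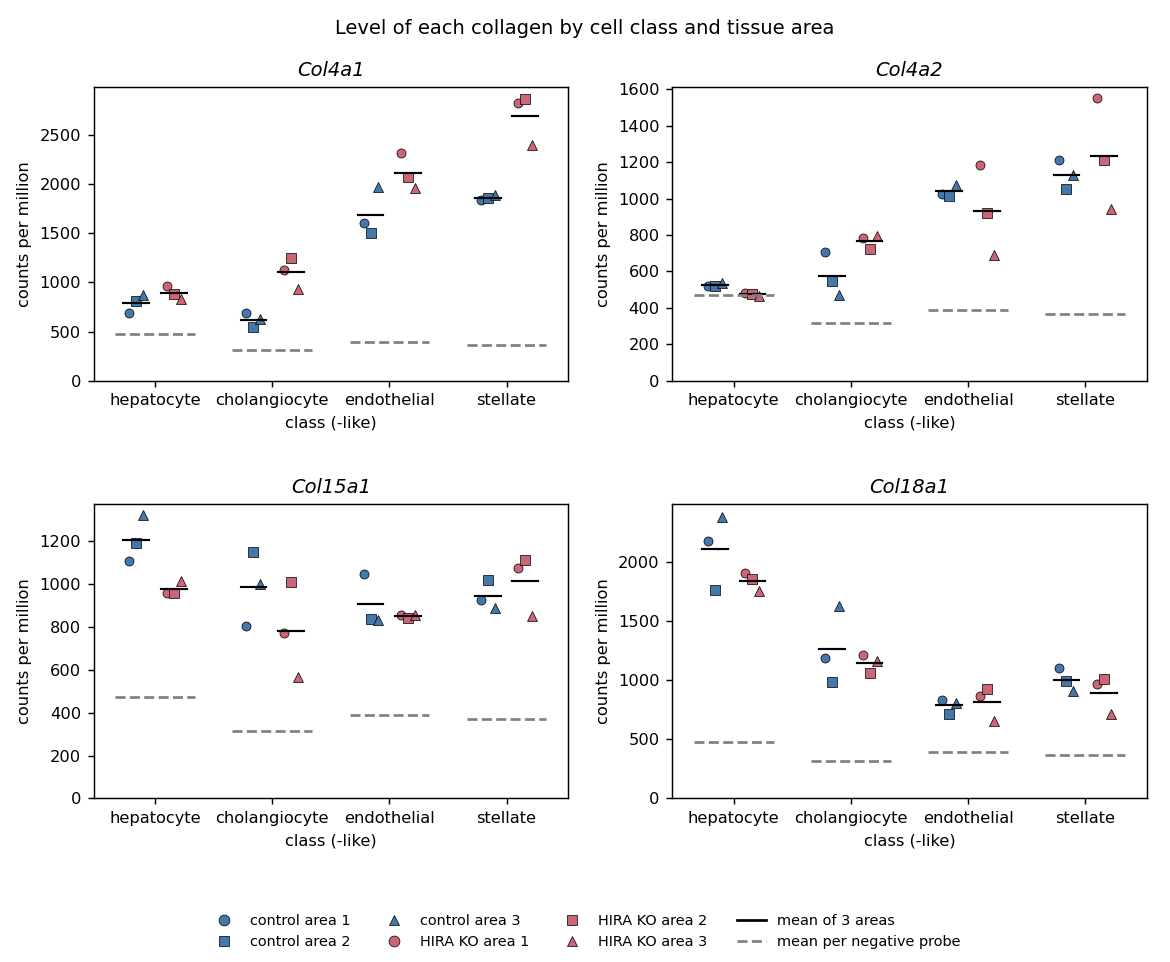
Level of each collagen in CPM (y axis) for 4 cell classes (x axis), with 1 point per tissue area, a black bar at the mean of 3 areas and a dashed line at the mean level per negative probe in the same cells. Col4a1 and Col4a2 are highest in stellate-like cells, where Col4a1 averages 2279 CPM, and Col18a1 is highest in hepatocyte-like cells at 1975 CPM.

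Over the 24 profiles of 4 classes by 6 areas, Col4a1 and Col4a2 correlated with r = 0.867, as a description of profiles that share areas and class differences. After subtraction of each class's mean the value was 0.467. Col18a1 correlated with Col4a1 at -0.695 and with Col4a2 at -0.736, and Col15a1 with Col4a1 at -0.163. Within classes, after the same subtraction, these values were -0.092, 0.178 and -0.22. Among the 748 targets above the highest negative probe, the 5 with the pattern most like Col4a1 were Itga1 (r = 0.917), the alpha chain of a collagen-binding integrin, Gm13889 (0.892), Ifitm3 (0.885), Col4a2 and Vim (0.866). Within classes, the values with Col4a1 were 0.418 (Itga1), 0.318 (Gm13889), 0.359 (Ifitm3) and 0.448 (Vim). Those most like Col4a2 were Ifitm3 (0.900), Col4a1, Gm13889 (0.857), Igfbp7 (0.848) and Il11ra1/2 (0.836). Their values with Col4a2 within classes were 0.420 (Ifitm3), -0.028 (Gm13889), 0.052 (Igfbp7) and 0.356 (Il11ra1/2). Col18a1 was most like Vegfa (0.903), the endothelial growth factor, then Arg1 (0.898), a urea cycle enzyme, Neat1 (0.836), Serpina1a (0.831) and H2-Q10 (0.827), of which Arg1 and Serpina1a are on the hepatocyte marker list. Within classes, the values with Col18a1 were 0.673 (Vegfa), 0.608 (Arg1), 0.281 (Neat1), 0.238 (Serpina1a) and -0.029 (H2-Q10). For Col15a1 the likest genes were Cx3cr1 (0.783), Fap (0.736), Xcl1 (0.710), Ccl4 (0.709) and Hpgds (0.700), with 0.563 (Hpgds) to 0.783 (Cx3cr1) within classes. In hepatocyte-like cells these 5 genes stood between 1.32 times (Fap) and 2.48 times (Ccl4) the negative probe level.

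To ask whether loss of HIRA from hepatocytes altered these collagens, the counts of each area and class were added up and set against genotype in edgeR's quasi-likelihood test. In bulk sums over all cells, fewer cells of a type and less RNA per cell cannot be told apart. None of the 4 members passed the threshold in any of the 5 fits, where 0.2% of targets were called over all cells, 0.902% in hepatocyte-like, 0% in cholangiocyte-like, 0% in endothelial-like and 0.401% in stellate-like cells. At an unadjusted p under 0.05, 390 of 4986 gene tests passed over the 5 fits, and 5 of 20 member tests, all of them Col4a1. DESeq2 called no member either.

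Col4a1 had a positive fold change in each class. In stellate-like cells, where the 3 control areas lay at 1837 to 1890 CPM and the 3 HIRA KO areas at 2399 to 2866 CPM, the groups did not overlap. The log2 fold change there was 0.59 (SE 0.195, adjusted p = 0.24). Slide rows, taken from positions and not from a label, each hold 1 area of either group. With the row as a block the fold change was 0.58 (SE 0.161, adjusted p = 0.0425). A limma-voom fit over fields of view with the area as a random block gave 0.53 (SE 0.167, adjusted p = 0.0282) over the 266 targets that passed its filter, and DESeq2 gave 0.58 (adjusted p = 0.0605). Over all cells, the row block, limma-voom and DESeq2 called 19, 11 and 10 of 998 targets, against 2 in the fit without the block. Their numbers of called targets in stellate-like cells are not given here, so a call there does not by itself set Col4a1 apart. Without any 1 area the adjusted p of the fit without the block lay between 0.136 and 0.75. Because the groups did not overlap, the HIRA KO area exceeded the control area in each row, as it would under any pairing of areas.

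The stellate-like class is made up of 2 clusters, and a difference between them in this value was not tested. In the larger one, led by Dcn, Bgn and Col3a1, Col4a1 stood at 1944.5, 1789.6 and 1894 CPM in control areas and 3079, 2973 and 2467 CPM in HIRA KO areas. In the smaller one, of 820 cells led by Gsn, Mgp and Dpt, it stood at 1309, 2278 and 1857 CPM against 1366, 2136 and 1648 CPM, and the groups overlapped. The smaller cluster was 12.8 to 18.6% of stellate-like cells in control areas and 12.7 to 18.1% in HIRA KO areas. Markers of 2 other cell types lay above the control range in the stellate-like cells of HIRA KO areas. The summed level of 6 myofibroblast markers was 5392 to 5915 CPM in control and 6347 to 7563 CPM in HIRA KO areas, and that of the 10 hepatocyte markers was 27567 to 32556 CPM against 36858.5 to 49527 CPM, with 0 of either list called. The 12 endothelial markers overlapped, at 9929.8 to 11855 CPM against 9969 to 11888 CPM. The part of these in the Col4a1 value was not tested.

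In cholangiocyte-like cells Col4a1 stood at 691, 548 and 625 CPM in control areas 1 to 3 and at 1130, 1248 and 930 CPM in HIRA KO areas 1 to 3, without overlap. These levels rest on 43, 10 and 20 counts against 107, 136 and 28 counts. The log2 fold change was 0.84 (SE 0.237, adjusted p = 0.257), and Col4a1 ranked 2 of 994 targets by p in a class where no target was called. With nuclear transcripts alone it was 0.54 (adjusted p = 0.839). Of the 12 stellate markers, 6 were higher in cholangiocyte-like cells than in other cells. Their summed level over all 12 was 10899 to 18236 CPM in control and 16177 to 21050 CPM in HIRA KO areas. These ranges overlapped, and 0 were called. The 12 endothelial markers overlapped too, at 7339 to 8098 CPM against 7374 to 7781 CPM. Their part in the Col4a1 value was not tested. In endothelial-like cells the fold change was 0.36 (SE 0.183, adjusted p = 0.743), and control area 3 at 1967 CPM reached the level of HIRA KO area 3 at 1964 CPM. In hepatocyte-like cells, the class in which the deletion was directed, control areas had 692, 814 and 872 CPM and HIRA KO areas 961, 879 and 833 CPM, with a fold change of 0.28 (SE 0.111, adjusted p = 0.305). It was 0.15 when members were kept in the clustering (adjusted p = 0.682). Over all cells the fold change was 0.29 (SE 0.127, adjusted p = 0.648). Scaling by library size alone moved the median over all targets from -0.01 to -0.14 in hepatocyte-like cells and from -0.01 to -0.12 over all cells, and Col4a1 then had 0.15 (adjusted p = 0.434) and 0.18 (adjusted p = 0.487).

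The other 3 members had small fold changes. Over all cells Col4a2 had -0.00 (SE 0.123), Col15a1 -0.16 (SE 0.106) and Col18a1 -0.06 (SE 0.125), with adjusted p of 0.997, 0.809 and 0.917. In hepatocyte-like cells, Col15a1 was at 1107, 1188 and 1320 CPM in control areas and 956, 956 and 1011 CPM in HIRA KO areas, which did not overlap, and its fold change was -0.18 (SE 0.113, adjusted p = 0.542). This value was -0.31 with library size alone (adjusted p = 0.138), -0.28 with at least 50 counts per cell (adjusted p = 0.332) and -0.10 without control area 3 (adjusted p = 0.758). Over all cells that of Col15a1 was -0.27 with library size alone and -0.10 without HIRA KO area 1, also not called. Neat1-led hepatocyte-like cells of control areas had 1211, 1287 and 1429 CPM of Col15a1. Those of HIRA KO areas had 1032, 1032 and 1136 CPM, without overlap. The groups overlapped in every other hepatocyte-like cluster. In the larger Ttr-led one they stood at 846, 1056 and 1089 against 952, 1101 and 1104 CPM. The Neat1-led share of the class was lower in HIRA KO areas, and its part in the Col15a1 value was not tested. Col18a1 in hepatocyte-like cells had a fold change of -0.07 (SE 0.143, adjusted p = 0.891), and its areas overlapped. The largest fold change of Col4a2 was 0.35 (SE 0.247, adjusted p = 0.872) in cholangiocyte-like cells, where its areas had 707, 548 and 469 CPM against 782, 725 and 797 CPM, and it was 0.60 without control area 1 (adjusted p = 0.793).

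Counted over members and classes, 6 of 20 had areas that did not overlap between genotypes. These were Col15a1 over all cells (background 19.2% of targets), Col15a1 and Col4a2 in hepatocyte-like cells (24.6%), Col4a1 and Col4a2 in cholangiocyte-like cells (10.5%) and Col4a1 in stellate-like cells (12.8%), and none in endothelial-like cells (10.5%). Overlap was judged on CPM, which is scaled by library size alone. Under that scaling the median fold change over all targets was -0.14 in hepatocyte-like cells and -0.12 over all cells. Col4a2 in hepatocyte-like cells had a fold change of -0.15 with library size alone and -0.02 in the main fit. There its level in HIRA KO areas was 0.957 to 0.991 times the negative probe level. Whether the 6 stay apart under the scaling of the main fits was not tested. On simulated counts, a change of 2 times was recovered for 98% of changed targets in stellate-like cells and 89% in cholangiocyte-like cells, and a change of 1.5 times for 52% and 27%. The simulated counts had a fixed dispersion that was not estimated from these areas, and many targets were raised at once. These shares can therefore be higher than for a single changed gene in the real counts.

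**Figure D2:**
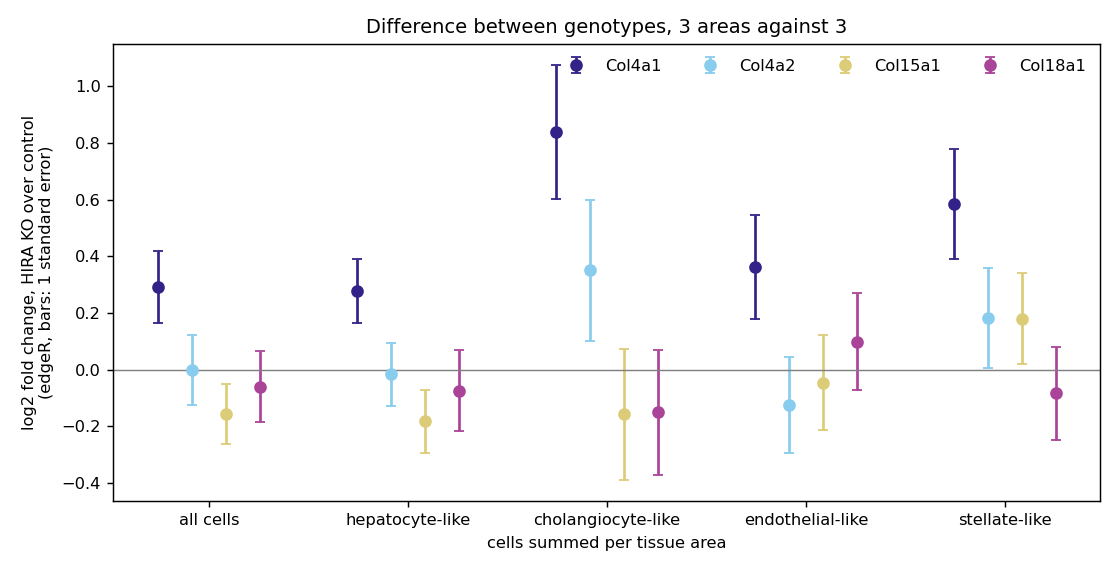
Log2 fold change of each collagen, HIRA KO over control (y axis), with its standard error, by cell class (x axis), from edgeR on sums over 3 areas per group. Col4a1 lies above 0 in every class, up to 0.84 in cholangiocyte-like cells, and no value passed the threshold after adjustment over all targets.

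The genes around these collagens were counted from fixed lists. Of 22 other basement membrane components, 3 were on the panel (Col4a5, Lama4 and Hspg2), and 0 were called in any fit. Hspg2, which encodes perlecan, was highest in endothelial-like cells at 1570 ± 213 CPM (SD, n = 6), and its fold change over all cells was -0.03 (SE 0.131, adjusted p = 0.954). Lama4, a laminin alpha chain of vessels, had 628 ± 123 CPM there and a fold change over all cells of -0.20 (SE 0.108, adjusted p = 0.676), where its level was 0.961 times that of the negative probes. Of 16 enzymes and chaperones of collagen maturation, 3 were on the panel, and 0 were called. Serpinh1, the collagen chaperone HSP47, had 1649 to 2082 CPM in stellate-like cells of control areas and 2323 to 2652 CPM in those of HIRA KO areas, and its fold change over all cells was 0.28 (SE 0.149, adjusted p = 0.676). Pxdn, the peroxidase that crosslinks collagen IV, was highest in stellate-like cells at 1609 ± 294 CPM, with -0.17 over all cells (SE 0.139, adjusted p = 0.831).

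Of 23 receptors for collagen and basement membrane, 15 were on the panel and 14 were tested, with 0 called. Itgb5 and Itgav, integrin chains, had the lowest p over all cells, with fold changes of 0.25 (SE 0.113) and 0.22 (SE 0.111), and Itgav stood at 0.990 times the negative probe level. Of 21 matrix proteases and inhibitors, 7 were on the panel and 0 were called. The lowest p over all cells belonged to Mmp14 at 0.11 (SE 0.109) and Mmp9 at 0.13 (SE 0.141). Of 23 genes of TGF-beta, PDGF and VEGF signals, 22 were on the panel and 0 were called, with Pdgfc, which stood at 0.732 times the negative probe level, at 0.28 (SE 0.119, adjusted p = 0.637) and Flt1, a VEGF receptor, at -0.15 (SE 0.105, adjusted p = 0.809). The medians of these 5 lists over all cells lay between -0.08 and 0.06, beside -0.01 over all targets.

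Other collagens were counted in the same way. Of 17 on the list, 16 were on the panel, and 3 rose in stellate-like cells of HIRA KO areas. Col1a1, the alpha1 chain of collagen I, rose by 1.49 on the log2 scale (SE 0.205, adjusted p = 9.99e-06), from 901 to 1228 CPM in control areas to 2687 to 3360 CPM in HIRA KO areas. Col3a1 rose by 1.203 (SE 0.206, adjusted p = 0.000487) and Col6a3, a chain of collagen VI, by 0.95 (SE 0.190, adjusted p = 0.00434). Col1a1 and Col3a1 are on the marker list that named the class. Over all cells, 1 of the 16 rose, Col1a1, by 0.74 (SE 0.122, adjusted p = 0.0269). The median over the 16 was 0.16 in stellate-like cells, beside -0.01 over all targets. The fold change of Col4a1 in these cells, 0.59, was smaller than that of each of the 3 called collagens, a difference that was not tested.

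Because both collagen IV chains enter the same trimer, the ratio of Col4a1 to Col4a2 counts was compared. The ratio itself depends on 2 different probe sets, so only its change between areas is read. Over all cells it was 1.37, 1.61 and 1.69 in control areas and 1.78, 1.97 and 2.01 in HIRA KO areas, without overlap. The means were 1.56 ± 0.166 and 1.92 ± 0.122 (SD, n = 3), a log2 difference of 0.30 (two-sided exact permutation, p = 0.1, which is also the lower limit). In endothelial-like cells the ratio was 1.62 ± 0.181 against 2.35 ± 0.457 and in stellate-like cells 1.65 ± 0.125 against 2.24 ± 0.380 (SD, n = 3), both without overlap (exact p = 0.1 each). In cholangiocyte-like cells the areas overlapped, at 1.10 ± 0.199 against 1.44 ± 0.277 (exact p = 0.2, n = 3). With the negative probe level subtracted, the areas over all cells overlapped, and the log2 difference was 0.70 (exact p = 0.3). The stellate-like areas then overlapped too, with control area 2 at 2.17 and HIRA KO area 1 at 2.09, and the endothelial-like areas did not, at 1.76 to 2.35 against 2.48 to 4.90.

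**Figure D3:**
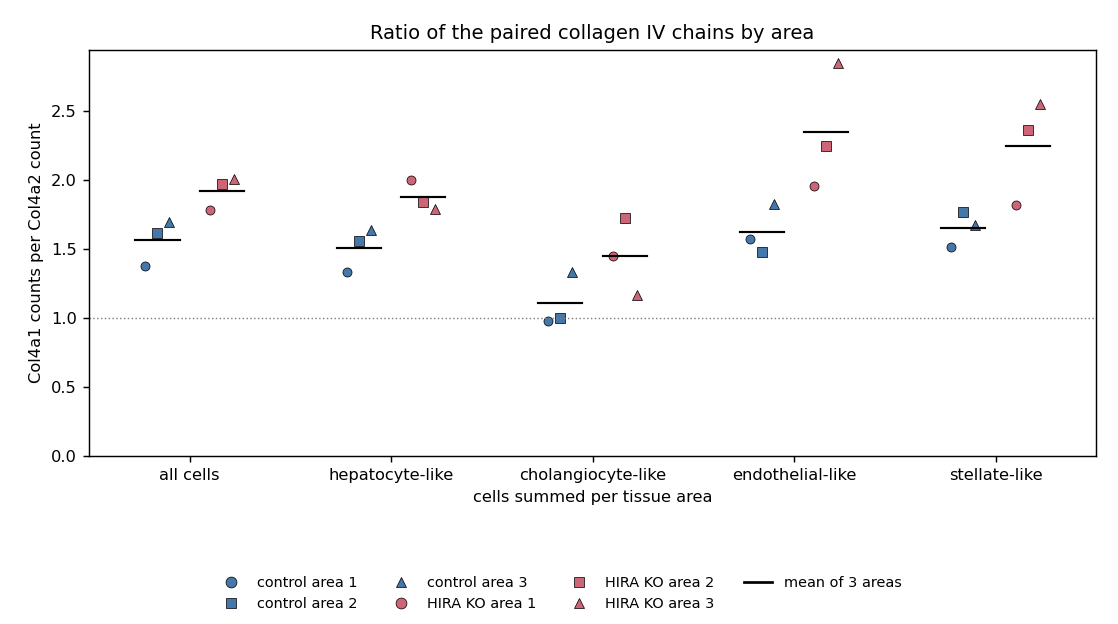
Ratio of Col4a1 to Col4a2 counts (y axis) by cell class (x axis), with 1 point per tissue area and a bar at the mean of 3 areas. The HIRA KO areas lie above the control areas over all cells, at 1.78 to 2.01 against 1.37 to 1.69, and the 2 groups overlap in cholangiocyte-like cells.

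Biliary cells rest on a basement membrane, so cells among the 20 nearest neighbours of a cholangiocyte-like cell were compared with the other cells of their class. The summed level of the 4 collagens in stellate-like cells was 5799 ± 924 CPM near biliary cells and 5176 ± 650 CPM elsewhere (SD, n = 6). The log2 difference was 0.16 ± 0.266, higher near in 5 of 6 areas (exact paired permutation, two-sided, p = 0.219, adjusted p = 0.594 over 3 classes). The values were 0.15, 0.38 and -0.30 in control areas and 0.08, 0.16 and 0.46 in HIRA KO areas. Near stellate-like cells numbered 344, 91 and 240 in control areas, beside 472, 370 and 694 others. In HIRA KO areas they numbered 659, 1040 and 128, beside 406, 368 and 409 others. Hepatocyte-like and endothelial-like cells had -0.03 ± 0.0942 (exact p = 0.469, n = 6) and -0.05 ± 0.208 (exact p = 0.594, n = 6). Taken alone, Col4a1 in stellate-like cells stood at 2639 ± 554 CPM near and 2139 ± 448 CPM elsewhere, a difference of 0.30 ± 0.349 (5 of 6 areas, exact p = 0.0938, adjusted p = 0.891 over the members and classes). Its largest value, 0.90, came from control area 2, with 91 near cells. No difference passed the threshold.

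**Figure D4:**
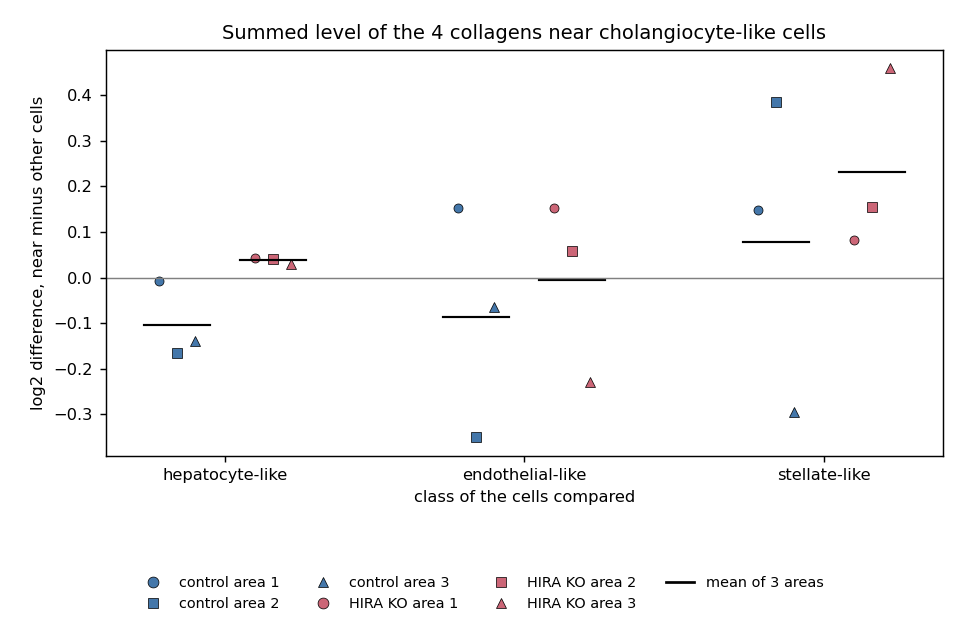
Log2 difference in the summed level of the 4 collagens, near minus away from cholangiocyte-like cells (y axis), for 3 cell classes (x axis), with 1 point per tissue area. Stellate-like cells lie above 0 in 5 of 6 areas, with a mean of 0.16, and the hepatocyte-like points of the 2 groups lie on either side of 0.

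A split by the class of the single nearest cell was added after the data were seen. Hepatocyte-like cells next to a stellate-like or endothelial-like cell had 872 ± 125 CPM of Col4a1, and the others 785 ± 134 CPM (SD, n = 6, 4 of 6 areas, exact p = 0.188). Stellate-like cells next to a hepatocyte-like cell had 876 ± 179 CPM of Col18a1, and the others 999 ± 197 CPM (exact p = 0.281, n = 6). None of the 12 differences passed the threshold (lowest adjusted p = 0.562).

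Transcripts outside segmented cells and in nuclei were compared last. Of all Col4a1 transcripts, 6.57% ± 1.11 (SD, n = 6) lay outside cells, of Col4a2 6.45% ± 1.10, of Col15a1 6.65% ± 1.78 and of Col18a1 5.38% ± 1.48, beside 6.84% ± 1.26 for all targets and 9.94% ± 1.64 for negative probes. The 4 together had 5.89% ± 0.794 outside in control areas and 6.43% ± 0.994 in HIRA KO areas (SD, n = 3, exact permutation test, two-sided, p = 0.6).

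Of Col18a1 transcripts inside cells, 57.7% ± 5.19 (SD, n = 6) lay over nuclei, against 51.2% ± 2.64 of Col15a1, 46.9% ± 3.57 of Col4a2 and 41.6% ± 2.73 of Col4a1. The share of Col18a1 was 61.8, 62.2 and 61.9% in control areas and 53.7, 56.6 and 49.7% in HIRA KO areas, without overlap (two-sided exact permutation, p = 0.1, the lower limit with n = 3). For the 4 collagens together it was 52.6% ± 2.25 against 47.8% ± 2.27 (SD, n = 3, exact p = 0.1). Other targets moved the same way in HIRA KO areas, with all targets at 50.7% ± 3.13 against 45.5% ± 2.70 (exact p = 0.2), 5 hepatocyte markers at 34.03% ± 3.11 against 23.4% ± 1.98 (exact p = 0.1) and the nuclear RNA Neat1 at 91.96% ± 1.21 against 86.0% ± 0.989 (exact p = 0.1, n = 3). Negative probes had 27.8% ± 2.04 against 29.4% ± 2.39. In endothelial-like cells 56.1% ± 6.11 of Col4a1 transcripts were nuclear, and in stellate-like cells 43.7% ± 3.77 (SD, n = 6).

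**Figure D5:**
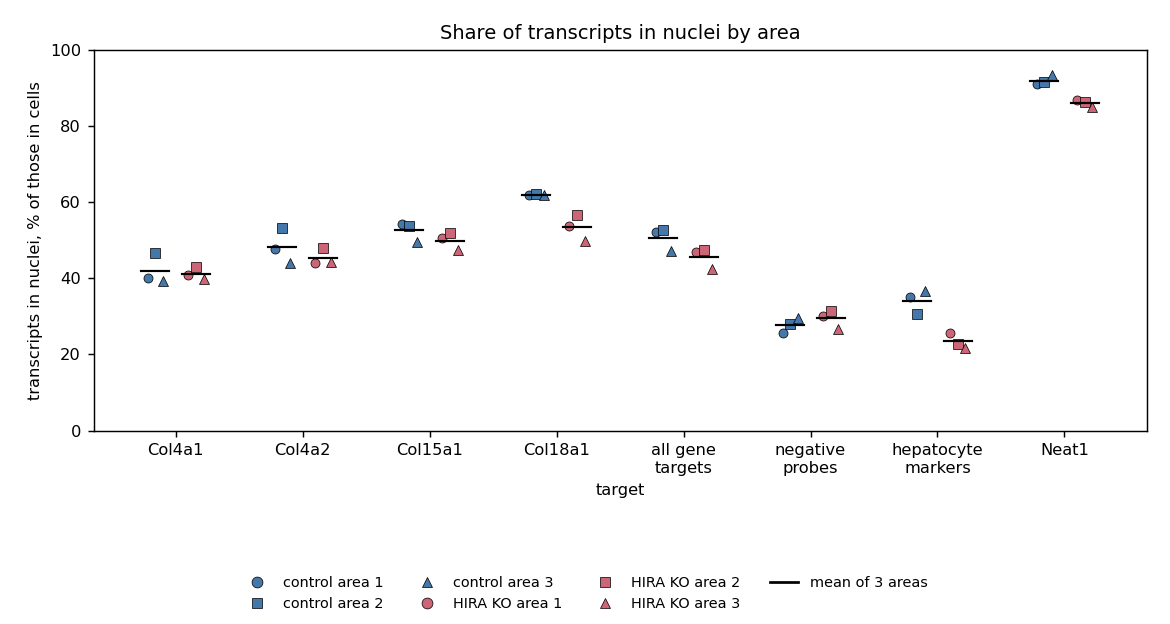
Share of transcripts inside cells that lie over nuclei, in percent (y axis), for the 4 collagens and comparison targets (x axis), with 1 point per tissue area. Col18a1 has 61.8 to 62.2% in control areas and 49.7 to 56.6% in HIRA KO areas, and the hepatocyte markers and Neat1 are also lower in HIRA KO areas.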

How the data were processed

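Per cell and gene target, the authors deposited unnormalized transcript counts, together with a table of single transcripts with their compartment, and cell positions. The platform decoded and segmented, in a version not given in the sources used here. Per the file headers, areas and positions are in pixels. The table holds no normalization, and the genome build of the probes is not given in the sources used here.

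The members and gene lists were chosen with earlier results of these data known. Cells under 20 counts or above 5 times the geometric mean area were left out, leaving 49682 of 52132. Pearson residuals (theta 100, clip 10), without the members, were reduced to 30 principal components and clustered (Leiden, resolution 1.6, leidenalg 0.10.2). A cluster was named where at least 3 markers were raised by over 0.5 (log2) and its 10 top genes held at least 1 marker and more of that class than of another. No doublet caller was run. Fields of view of consecutive number and 1 genotype formed the 6 areas. Areas held 719085 to 1542262 gene counts. Tests were edgeR 4.0.16 (TMM, filterByExpr, threshold 0.05 on Benjamini-Hochberg adjusted p), checked on simulated data, and exact permutations on log2(CPM + 1). DESeq2 1.42.0 and limma 3.58.1 were alternatives. Same-row areas deviated together over all cells (correlations 0.357 to 0.54), in hepatocyte-like (0.176 to 0.332) and in stellate-like cells (0.148 to 0.229). Slide rows, taken from positions and not from a label, were therefore read as a block there. Named were the members, the called genes of each list or its 2 of lowest p over all cells, and the 5 likest genes per member. Promoters came from RefSeq (GRCm38.p6), where all 4 members matched.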

Additional observations from a re-analysis of the deposited data

Results flagged for a closer look

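Both patterns below were noted because every area of 1 genotype moved one way and every area of the other the opposite way. A pattern chosen by this rule always has the exact p of 0.1 given below, so that p adds no evidence. In hepatocyte-like cells, the summed level of the 4 collagens near biliary cells minus elsewhere averaged -0.10 on the log2 scale in control areas (-0.01, -0.16 and -0.14) and 0.038 in HIRA KO areas (0.04, 0.04 and 0.03). The difference between genotypes had an exact permutation p of 0.1, two-sided, the smallest that 3 against 3 allows. Near hepatocyte-like cells numbered 442, 443 and 545 in control areas, beside 837, 2049 and 1478 others. In HIRA KO areas they numbered 1299, 2004 and 794, beside 1138, 1583 and 2419 others.

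The level of Col4a1 in cholangiocyte-like minus hepatocyte-like cells averaged -0.35 on the log2 scale in control areas (-0.0024, -0.57 and -0.48) and 0.30 in HIRA KO areas (0.23, 0.50 and 0.16), also with an exact permutation p of 0.1. It was 1 of 24 such comparisons of members and pairs of classes, and the cholangiocyte-like level of control area 2 rests on 10 counts. Others of the 24 also had an exact permutation p of 0.1, among them Col4a2 in the same pair of classes.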

How the results depend on the processing

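Background limited Col4a2 in hepatocyte-like cells, at 0.957 to 1.27 times the negative level, and depth limited cholangiocyte-like cells, where Col4a1 had 10 to 136 counts per area. With the slide row as a replicate block, 1 member was called in stellate-like cells (Col4a1, 0.58, adjusted p = 0.0425). Calls of fixed-list genes, counted per fit, were 9 in place of 4. In the main fits Col1a1 was called over all cells and in stellate-like cells, and counts once for each. The block also called more targets at large, 19 of 998 in place of 2 over all cells and 29 of 998 in place of 9 in hepatocyte-like cells. In cholangiocyte-like (0.0787 to 0.138) and endothelial-like cells (0.0546 to 0.279) not every row's correlation passed 0.1, and the block called no member there. The highest endothelial-like correlation lay above the stellate-like range of 0.148 to 0.229, so this cut does not clearly separate these classes. Sums per field of view called 1 member and gave 7 list gene calls counted per fit, with 11 of 998 targets called over all cells and 44 of 995 in hepatocyte-like cells. That fit gave no value for the members in cholangiocyte-like cells or for Col18a1 in stellate-like cells, which fell below its filter. Nothing else called a member. The cause of each change below was not tested.

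The step from the highest to the second class was 0.29 for Col4a1, 0.31 for Col4a2 and 0.65 for Col18a1 with edgeR over class sums. It was -0.013 for Col4a1 with nuclear transcripts, and for Col15a1 -0.11 with classes by marker score and -0.0090 with the negative level subtracted. Near biliary cells, hepatocyte-like cells had 0.0056 at resolution 0.8, 0.021 at a minimum of 50 counts and 0.023 with members kept in the clustering, and endothelial-like cells 0.024 with 10 neighbours.

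Col4a1 in hepatocyte-like over cholangiocyte-like cells was -0.0046 at resolution 0.8, -0.0077 at a minimum of 50, -0.32 by marker score, -0.28 in nuclei, -0.40 after subtraction and -0.20 with edgeR. Col15a1 in endothelial-like over cholangiocyte-like cells was -0.0035 with members kept, -0.11 by score, -0.15 after subtraction and -0.073 with edgeR. Col18a1 in stellate-like over endothelial-like cells was -0.044 by score. The fold change of Col4a2 over all cells was 0.0019 with DESeq2, 0.0029 per field of view and 0.013 at a minimum of 50. In hepatocyte-like cells that of Col4a2 was 0.019 at resolution 0.8 and 0.035 at a minimum of 50, and that of Col18a1 0.039 by score. In endothelial-like cells it was 0.099 by score and 0.12 in nuclei for Col4a2, and -0.13 and -0.16 for Col18a1.

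With each area left out in turn, members called stayed at 0 in every class and list gene calls, counted per fit, ranged from 3 to 4. The highest class exceeded the second by 0.20 to 0.31 (Col4a1), 0.23 to 0.31 (Col4a2), 0.07 to 0.23 (Col15a1) and 0.69 to 0.75 (Col18a1). Differences near biliary cells were -0.05 to -0.01 in hepatocyte-like, -0.087 to 0.014 in endothelial-like and 0.09 to 0.25 in stellate-like cells. The log2 ratio difference was 0.21 to 0.36, the outside share differed by 0.218 to 1.11 points and the nuclear share by -6.07 to -3.71 points. Fold changes that took either sign were those of Col4a2 (-0.087 to 0.10) and Col18a1 (-0.11 to 0.014) over all cells, Col4a2 (-0.047 to 0.014) and Col18a1 (-0.21 to 0.046) in hepatocyte-like, Col18a1 (-0.26 to 0.075) in cholangiocyte-like, Col4a2 (-0.29 to 0.034) and Col15a1 (-0.12 to 0.063) in endothelial-like and Col18a1 (-0.16 to 0.0022) in stellate-like cells. Col4a1 in hepatocyte-like over cholangiocyte-like cells ranged from -0.083 to 0.13, and Col15a1 in endothelial-like over cholangiocyte-like cells from -0.093 to 0.12.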
